A study of Homo sapiens with 4 samples.

Results

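A set of 10 genes that regulate the YAP-TEAD branch of the Hippo pathway or report on its activity was followed across 4 RNA-seq libraries, namely CTGF, CYR61, ANKRD1, AMOTL2, AXL, LATS2, AJUBA, YAP1, WWTR1 and TEAD1. They were taken by symbol, and each matched 1 row among the 44591 genes listed for a library. CTGF and CYR61 are the older names of CCN2 and CCN1. All 10 passed the requirement of 5 counts summed over the libraries, as did 23942 genes in all.

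The libraries carried the label HepG2, a cell line established from a human liver tumor. Cells at about 70% confluency received siNC, the control siRNA, or siLINC01186, siRNA against the long noncoding RNA LINC01186, which the study names SALIS. Transfection was followed by 6 h without serum and by a further 24 h in DMEM with 10% serum, at 37 °C and 5% CO2 in both groups. Each group held 2 libraries, numbered replicate 1 and replicate 2, and both numbers received the same siNC but different siRNA oligos against SALIS. The oligo in each library and the density of each culture at harvest were not given in the sources used here. The study calls the numbers biological repeats, but the labels do not say that they came from separate cultures, so p-values measure only the spread between these libraries.

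The Hippo pathway is a kinase cascade that restrains cell growth in crowded cultures. Its last kinases, LATS1 and LATS2, phosphorylate the coactivators YAP (YAP1) and TAZ (WWTR1) and hold them in the cytoplasm. In sparse or stretched cells YAP and TAZ enter the nucleus and bind TEAD factors, and targets such as CTGF and CYR61 are then transcribed. These targets are therefore widely used as a readout of culture density, and in liver the pathway is known for its control of organ size and of tumor growth.

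The libraries held 14968958 to 17297245 counts, and the libraries of 1 group were not copies of each other, with a chi-square of 16.1 per gene between the siNC libraries and 18.5 between the siLINC01186 libraries. LINC01186 had 15 and 14 counts with siNC and 12 and 14 with siLINC01186, so that no fall of the targeted RNA was detectable at this depth. By qPCR, a separate measurement, the study reports that its siRNAs knocked down SALIS in HepG2 cells. Of 10 hepatocyte markers, 9 had 27 counts or fewer in every library. HNF4A, a hepatocyte transcription factor, had 79 and 161 counts with siNC and 83 and 188 with siLINC01186 and made up most of their sum. ALB, which encodes albumin, had 0 and 15 counts with siNC and 0 and 14 with siLINC01186. The 10 hepatocyte markers summed to 4.96 and 17.8 CPM (counts on a common library size, scaled by TMM) with siNC and to 6.30 and 16.0 CPM with siLINC01186, which goes against the HepG2 label, and no other cell type was assigned. The study's supplement gives a DNA profile (short tandem repeats) of its HepG2 cells with a full match to a HepG2 line. That profile does not name these libraries. The 7 fibroblast markers summed to 53.3 to 90.9 CPM, 5 endothelial markers to 1.97 to 4.39 CPM and 5 leukocyte markers to 53.2 to 59.7 CPM, the last nearly all from CD68. PTPRC, which marks leukocytes in general, had 0 counts in 3 libraries and 2 in the other one.

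TEAD factors recognise the sequence GGAATG, and its matches in the promoters of the 10 genes are shown first. Binding to the matches was not measured here. Promoter windows of 300 bases around annotated starts were taken from RefSeq on GRCh38.p14 and searched for GGAATG and its reverse complement CATTCC. Windows were found for 8 of the 10 genes, 12 windows in all. CYR61 and TEAD1 had none in the table. CTGF held 3 matches and ANKRD1 held 2. Both windows are printed on the coding strand with the matches in capitals, CTGF from chr6:131951323-131951622 and ANKRD1 from chr10:90921038-90921337, both genes on the minus strand.

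CTGF: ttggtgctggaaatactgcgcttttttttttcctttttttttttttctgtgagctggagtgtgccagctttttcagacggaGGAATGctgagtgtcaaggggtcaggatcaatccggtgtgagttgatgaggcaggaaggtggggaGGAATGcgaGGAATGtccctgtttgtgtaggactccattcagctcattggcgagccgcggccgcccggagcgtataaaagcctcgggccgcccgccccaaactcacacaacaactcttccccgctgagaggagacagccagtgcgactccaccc
ANKRD1: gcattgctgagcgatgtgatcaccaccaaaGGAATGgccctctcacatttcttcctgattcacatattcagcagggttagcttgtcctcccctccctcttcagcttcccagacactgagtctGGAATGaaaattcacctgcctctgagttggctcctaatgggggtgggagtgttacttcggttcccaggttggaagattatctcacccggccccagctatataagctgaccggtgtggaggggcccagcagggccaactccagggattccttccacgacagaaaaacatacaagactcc

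The matches in CTGF began 169, 104 and 95 bases before the start site, so that the last pair lay side by side. Those in ANKRD1 began 220 and 128 bases before it. AMOTL2, AXL, LATS2, AJUBA and YAP1 held 1 match each in 1 window, and neither window of WWTR1 held one. Among all 35116 windows 14.0% held at least 1 match, 1.36% held at least 2 and 0.125% held at least 3. A match is a description of the letters only. CTGF and ANKRD1, which held the most matches, differed widely in RNA level, as given next.

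**Figure D1:**
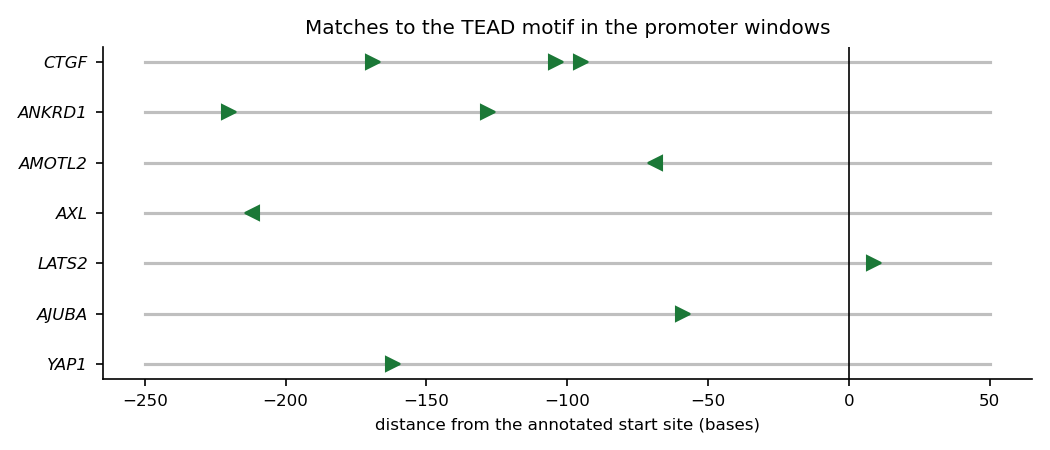
Matches to the TEAD motif in the promoter windows that held one, by distance in bases from the annotated start site. Arrows point right for GGAATG on the coding strand and left for CATTCC. The 3 matches of CTGF and the 2 of ANKRD1 all lie before the start, and the match of LATS2 begins 9 bases after it.

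Levels were compared between genes per length, as TPM, which divides counts by gene length. AXL, TEAD1 and YAP1 were the highest, with means over the 4 libraries of 80.4 ± 18.1 TPM (SD, n = 4), 71.6 ± 16.1 TPM and 70.2 ± 8.81 TPM. CYR61 followed with 55.8 ± 19.7 TPM, AMOTL2 with 50.2 ± 14.3 TPM, WWTR1 with 36.2 ± 3.82 TPM and AJUBA with 27.4 ± 6.06 TPM. CTGF had 13.0 ± 4.38 TPM, LATS2 had 11.8 ± 2.90 TPM and ANKRD1 had 0.257 ± 0.044 TPM. In this order AJUBA lay above CTGF in every library and LATS2 above ANKRD1, while every other pair of neighbours overlapped in range. The transcription factor TEAD1 (51.6 to 85.0 TPM) was listed beside TEAD4 at 49.0 to 69.2 TPM, TEAD3 at 35.5 to 43.7 TPM and TEAD2 at 34.0 to 42.1 TPM, so all 4 TEAD genes were detected.

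**Figure D2:**
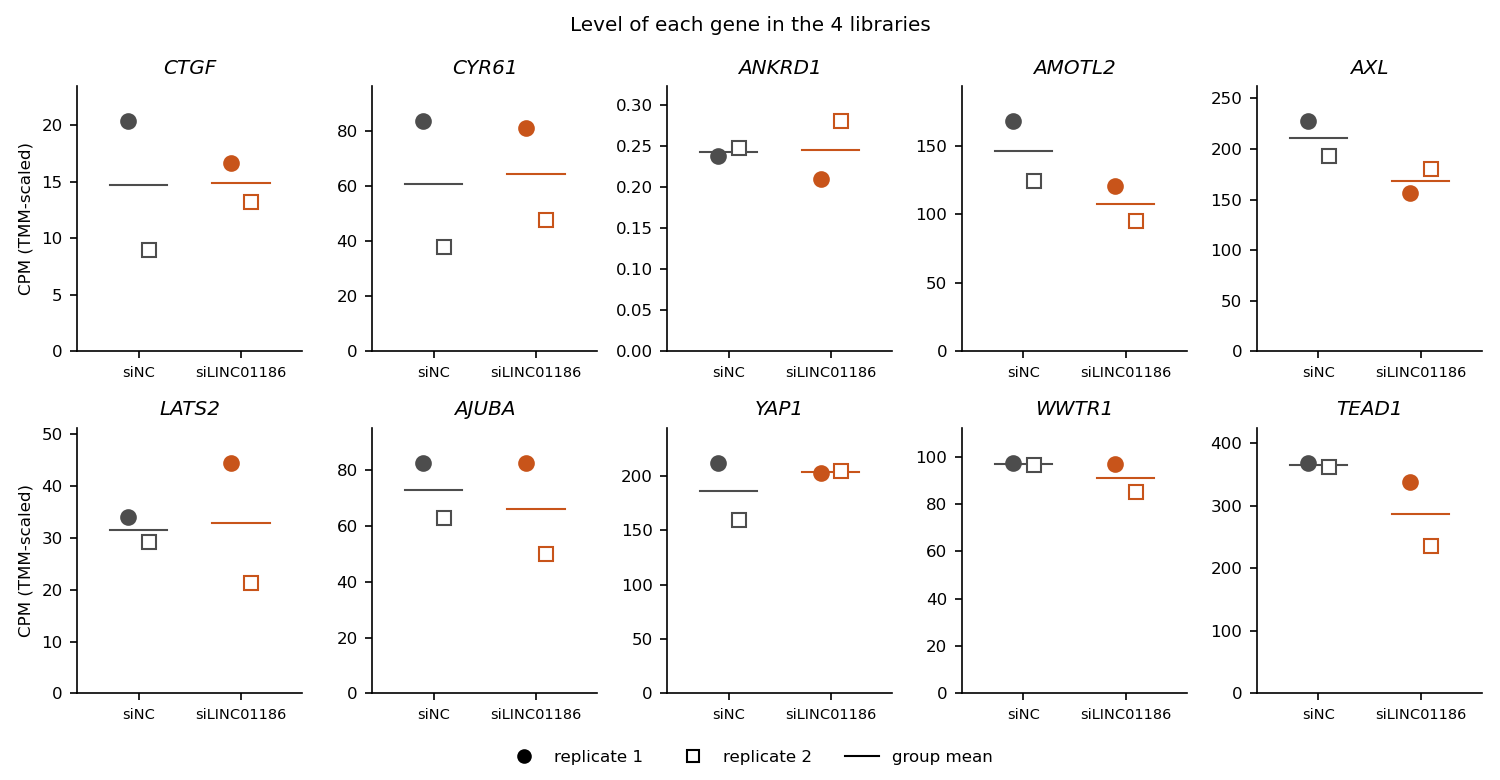
CPM of each gene, scaled by TMM library size, in the siNC and siLINC01186 libraries. Filled circles are replicate 1, open squares replicate 2 and lines the group means, and each panel has its own axis from 0. CTGF, CYR61, LATS2 and AJUBA are higher in replicate 1 than in replicate 2 in both groups, and AMOTL2, AXL and TEAD1 are lower in both siLINC01186 libraries than in both siNC libraries.

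The targets were examined first. CTGF (CCN2), on chromosome 6 at 132269316 to 132272518 of hg19, the build of the files, encodes a secreted matricellular protein. It had 20.4 CPM and 8.98 CPM in siNC replicates 1 and 2 and 16.7 CPM and 13.2 CPM in siLINC01186 replicates 1 and 2. Both replicate 1 libraries were above both replicate 2 libraries, and the siLINC01186 libraries lay between the siNC libraries. Replicate 1 was 2.27-fold higher than replicate 2 with siNC (95% interval 1.87 to 2.78) and 1.26-fold higher with siLINC01186 (1.05 to 1.51). These intervals, like all intervals of ratios here, cover counting error only. In bulk libraries, fewer cells that express a gene and less of its RNA per cell cannot be told apart.

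CYR61 (CCN1), a matricellular protein of the same CCN family, lies on chromosome 1 at 86046444 to 86049650. It had 83.9 CPM and 37.8 CPM in siNC replicates 1 and 2 and 81.2 CPM and 47.9 CPM in siLINC01186 replicates 1 and 2. The replicate 1 libraries were close to each other and well above both replicate 2 libraries. Replicate 1 was 2.22-fold higher than replicate 2 with siNC (95% interval 2.02 to 2.45) and 1.69-fold higher with siLINC01186 (1.55 to 1.85). CYR61 exceeded CTGF by a similar factor throughout, and the ratio of their TPM values was 4.20 and 4.30 with siNC and 4.98 and 3.70 with siLINC01186.

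ANKRD1, a cardiac ankyrin repeat protein and another common YAP readout, is on chromosome 10 at 92671857 to 92681032. It had 4 counts in each siNC library and 3 and 5 counts with siLINC01186. A count of 0 would allow up to 3 counts, so ANKRD1 was near the limit of detection in every library and could not report on either comparison. AXL, a receptor tyrosine kinase transcribed under YAP control in liver cancer cells, lies on chromosome 19 at 41725104 to 41767672. It had 228 CPM and 193 CPM with siNC and 157 CPM and 180 CPM with siLINC01186. The siLINC01186 libraries were both below the siNC libraries, and the replicate numbers overlapped.

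Regulators of YAP and of the LATS kinases came next, several of which are themselves transcribed under YAP control. AMOTL2, an angiomotin family protein that binds YAP, lies on chromosome 3 at 134074187 to 134094259. It had 168 CPM and 124 CPM in siNC replicates 1 and 2 and 120 CPM and 95.04 CPM in siLINC01186 replicates 1 and 2. Within each group replicate 1 was the higher, and within each number siLINC01186 was the lower. The siLINC01186 to siNC ratio was 0.715 (95% interval 0.673 to 0.759) in replicate 1 and 0.767 (0.718 to 0.818) in replicate 2, the only pair of ratios among the 10 genes that were both below 0.8.

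LATS2, the kinase that phosphorylates YAP and TAZ, is on chromosome 13 at 21547175 to 21635722. It had 34.0 CPM and 29.1 CPM in siNC replicates 1 and 2 and 44.5 CPM and 21.2 CPM in siLINC01186 replicates 1 and 2. The siLINC01186 libraries were thus the highest and the lowest of the 4. AJUBA, a LIM protein that binds LATS kinases and restrains them, lies on chromosome 14 at 23440383 to 23451851. It had 82.6 CPM and 62.7 CPM with siNC and 82.4 CPM and 49.9 CPM with siLINC01186, with the replicate 1 libraries almost equal and above both others.

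The coactivators and their DNA-binding partner followed. YAP1, on chromosome 11 at 101981192 to 102104154, had 212 CPM and 160 CPM with siNC and 203 CPM and 204 CPM with siLINC01186, and siNC replicate 2 alone was low. WWTR1, which encodes TAZ and lies on chromosome 3 at 149235022 to 149421060, had 97.5 CPM and 96.6 CPM with siNC and 96.9 CPM and 85.2 CPM with siLINC01186, the narrowest spread of the 10 genes relative to its mean. TEAD1, on chromosome 11 at 12695969 to 12966284, had 369 CPM and 362 CPM with siNC and 338 CPM and 235 CPM with siLINC01186. Both siLINC01186 libraries were below both siNC libraries, and siLINC01186 replicate 2 was far below the other 3. The TPM ratio of YAP1 to WWTR1 was 2.05 and 1.56 with siNC and 1.97 and 2.25 with siLINC01186.

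To ask whether the genes responded to siLINC01186, both groups were compared across all genes by the quasi-likelihood test of edgeR, with Benjamini-Hochberg adjusted p-values over all genes tested. In this test, which had no block for the replicate number, none of the 10 genes passed an adjusted p of 0.05, and none had an unadjusted p under 0.05. Over all genes 0 of 23942 passed (0%), 289 (1.21%) had an unadjusted p under 0.05, and 181 (0.756%) passed the limits the study states, a log2 fold change beyond 1 with an unadjusted p under 0.05. DESeq2 called 1 gene, MIR6087, which is not among the 10 and was named after its values were seen. The log2 fold changes of CTGF and CYR61 were 0.02 (SE 0.36) and 0.08 (SE 0.37), and the gap between replicates within each group was larger than the gap between the group means for both.

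The largest differences among the 10 genes were those of AMOTL2 (log2 fold change -0.44, SE 0.22), TEAD1 (-0.35, SE 0.22) and AXL (-0.32, SE 0.19), each with an adjusted p of 0.9998 by edgeR without a block. With the replicate number as a block, an alternative described in the last section, AMOTL2 and TEAD1 passed and AXL did not. These 3 genes were also those whose siLINC01186 libraries both lay below both siNC libraries, a pattern found in 12.4% of all genes tested. No gene of the 10 had both siLINC01186 libraries above both siNC libraries, against 13.6% of all genes. The other 7 genes had log2 fold changes between -0.14 for AJUBA and 0.13 for YAP1. The median over the 10 genes was -0.04 on the log2 scale, beside 0.00453 for all genes.

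**Figure D3:**
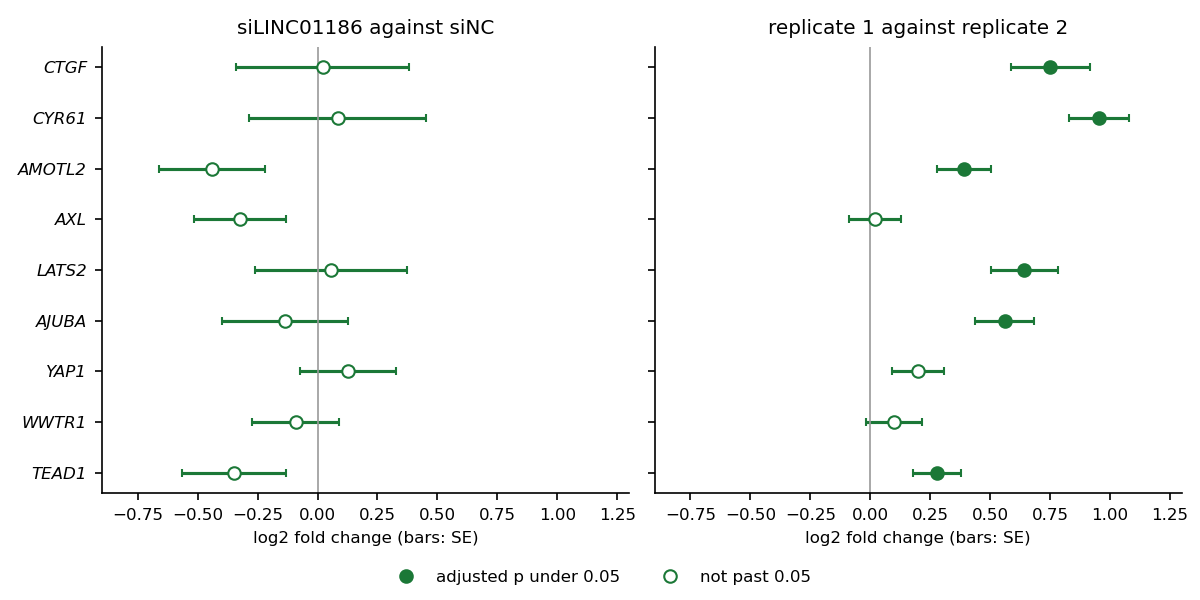
Log2 fold changes with standard errors for 9 genes, ANKRD1 left out for its low counts, between siLINC01186 and siNC (left) and between replicate 1 and replicate 2 (right), from edgeR. Filled points passed an adjusted p of 0.05. The left fit had no block for the replicate number, and the right fit had the treatment as a term, so their standard errors are not alike. None is filled on the left, and 6 are filled on the right, all above 0. With the replicate number as a block, not drawn here, AMOTL2 and TEAD1 passed between siLINC01186 and siNC.

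Replicate 1 and replicate 2 were then compared, with the treatment as a term in the same test, as a readout that could differ with culture density. CYR61, CTGF, LATS2, AJUBA, AMOTL2 and TEAD1 were higher in replicate 1, and none of the 10 genes was called lower. CYR61 was 1.94-fold higher (log2 fold change 0.95, SE 0.13, adjusted p = 1.10e-11 by edgeR) and CTGF 1.68-fold higher (0.75, SE 0.17, adjusted p = 0.000123 by edgeR). LATS2 was 1.56-fold higher (0.64, SE 0.14, adjusted p = 0.000113 by edgeR) and AJUBA 1.47-fold higher (0.56, SE 0.12, adjusted p = 0.000130 by edgeR). AMOTL2 was 1.31-fold higher (0.39, SE 0.11, adjusted p = 0.00553 by edgeR) and TEAD1 1.21-fold higher (0.28, SE 0.10, adjusted p = 0.0363 by edgeR).

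These 6 of 10 genes stood beside 4191 of 23942 genes called in all (17.5%), of which 2286 (9.55%) were higher and 1905 (7.96%) lower in replicate 1. With library totals alone in place of TMM the split became 1285 higher and 2792 lower, the median of all genes moved to -0.13 on the log2 scale, and 4 of the 10 genes were called, all higher. The 4 genes that did not pass were YAP1 (log2 fold change 0.20, adjusted p = 0.217 by edgeR), WWTR1 (0.10, adjusted p = 0.679 by edgeR), AXL (0.02, adjusted p = 0.946 by edgeR) and ANKRD1 (-0.23, adjusted p = 0.942 by edgeR). Both replicate 1 libraries lay above both replicate 2 libraries for CTGF, CYR61, LATS2, AJUBA and WWTR1, a pattern of 25.6% of all genes, and below for ANKRD1 alone, a pattern of 27% of all genes. The median over the 10 genes was 0.33 on the log2 scale, beside -0.0207 for all genes.

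CYR61 was the only 1 of the 6 genes that stayed past the threshold in all 10 alternatives, including the omission of each library, with log2 fold changes of 0.76 to 1.13. CTGF lost its call without siNC replicate 1 (adjusted p = 0.155 by edgeR) and without siNC replicate 2 (0.0859), and LATS2 without siLINC01186 replicate 1 (0.258) and without siLINC01186 replicate 2 (0.0601). AJUBA lost its call without either replicate 1 library (0.0576 and 0.0619), with a log2 fold change of 0.55 in both cases. These fits without a library had no treatment term. AMOTL2 lost it without siNC replicate 1 (0.757) or siLINC01186 replicate 2 (0.302), and among the fits without a library TEAD1 kept it only without siNC replicate 2, its log2 fold change turning to -0.03 without siLINC01186 replicate 2. YAP1 gained a call without siLINC01186 replicate 2 (adjusted p = 0.0387 by edgeR). With DESeq2's Wald test only CYR61 and AJUBA of the 10 passed, while CTGF (0.76) and LATS2 (0.65) kept log2 fold changes near those of edgeR. The small adjusted p-values also depended on the filter. With edgeR's expression filter they rose to 0.00425 for CYR61, 0.0174 for AJUBA and 0.0326 for AMOTL2 by edgeR. CTGF (0.041) and LATS2 (0.0478) then passed narrowly, and TEAD1 (0.163) did not.

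Other markers moved with the replicate number. Among 9 hepatocyte markers tested 7 were lower in replicate 1, among 7 fibroblast markers 3 and among 4 endothelial markers 1 (TEK), and none of these lists held a gene that was higher. The hepatocyte markers other than HNF4A had 27 counts or fewer in every library, so their calls rest on few counts. The density of each culture, the siRNA oligo and every other property that a replicate number may mark cannot be told apart here for the siLINC01186 libraries, and their part in the higher levels of CYR61 and CTGF was not tested.

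Within each replicate number the siLINC01186 to siNC ratio was then taken, 1 library against 1, with no replicate error. For CTGF the log2 ratio was -0.29 in replicate 1 and 0.56 in replicate 2, and for LATS2 it was 0.39 and -0.46. In both genes the signs were opposite and each ratio was beyond counting error, a pattern found in 3.44% of all genes tested. That share includes genes with few counts, which can hardly meet the description, so it is low for genes counted as deeply as these. From the deposited TPM the log2 ratio of LATS2 in replicate 1 was 0.14, within counting error. That scaling lowered the replicate 1 ratios of all genes by the same amount. CYR61 (-0.05 and 0.34) and YAP1 (-0.07 and 0.35) leaned the same way as CTGF, but in replicate 1 both were within counting error. AJUBA (-0.003 and -0.33) and WWTR1 (-0.01 and -0.18) were at siNC level in replicate 1 and below it in replicate 2. AMOTL2 (-0.48 and -0.38), AXL (-0.54 and -0.10) and TEAD1 (-0.12 and -0.62) were below siNC in both numbers, beyond counting error each time.

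**Figure D4:**
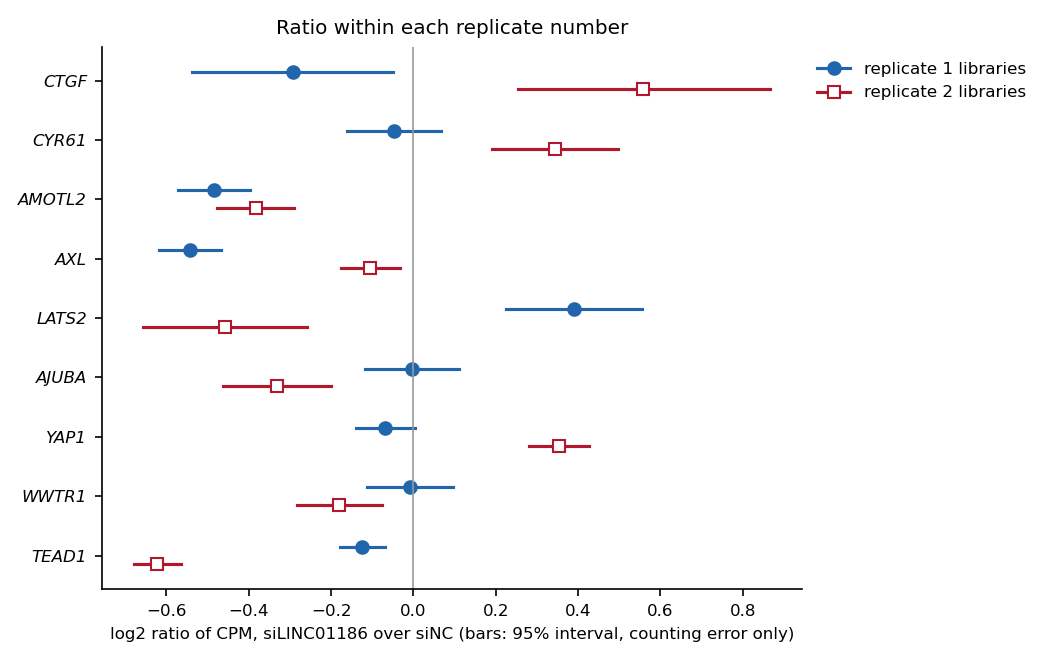
Log2 ratio of CPM between siLINC01186 and siNC within replicate 1 (filled circles) and within replicate 2 (open squares) for 9 genes, with 95% intervals for counting error only. CTGF and LATS2 have intervals on opposite sides of 0, and AMOTL2, AXL and TEAD1 have both intervals below 0.

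Because the oligos against SALIS differed between the numbers, their seeds were searched in the 3′UTRs of the 10 genes. The oligos are printed 5′ to 3′ in both strands, with bases 2 to 8, the seed, in capitals.

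siSALIS_01 as listed: aGGGCTCTattgggcaaaaa
siSALIS_01 complement: tTTTTGCCcaatagagccct
siSALIS_02 as listed: cTAAGTGActcactgcatc
siSALIS_02 complement: gATGCAGTgagtcacttag

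In GENCODE release 29 the longest annotated 3′UTR of LATS2 (1838 bases) held 2 matches to the seed of the siSALIS_02 complement, that of AMOTL2 (1831 bases) held 1 match and that of YAP1 (3483 bases) 2 matches to the seed of the siSALIS_01 complement, and that of TEAD1 (7261 bases) held 2 matches to the seed of siSALIS_01 as listed. CTGF, CYR61, ANKRD1, AXL, AJUBA and WWTR1 held none. Each of the seeds had a match in 11.2% to 13.0% of 19115 genes with a 3′UTR, whose median length was 1083 bases. These shares are for 1 seed at a time. The share of genes with a match to any of the seeds is larger and was not counted, so no excess among the 10 genes can be read from them. All 7 sites are shown with 10 bases on each side and the match in capitals, to set genes with a site beside their levels. LATS2, TEAD1 and AMOTL2 had their lowest level in siLINC01186 replicate 2, as did AJUBA and WWTR1, which held no match. AMOTL2 was lower in both siLINC01186 libraries than in both siNC libraries. YAP1, which held the same seed match as AMOTL2, was 0.954 of its siNC level in replicate 1 and 1.28-fold higher in replicate 2. The sites lie on GRCh38. Those of LATS2 are at chromosome 13, 20974648 to 20974654 and 20974213 to 20974219, minus strand. That of AMOTL2 is at chromosome 3, 134356118 to 134356124, minus strand. Those of YAP1 are at chromosome 11, 102231790 to 102231796 and 102231886 to 102231892, plus strand. Those of TEAD1 are at chromosome 11, 12937538 to 12937544 and 12939973 to 12939979, plus strand.

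LATS2 site 1: caggaccttcACTGCATtaaaacaata
LATS2 site 2: tgtggagagtACTGCATgagcagagtt
AMOTL2 site: aggaaaaaaaGGCAAAAaatattgtga
YAP1 site 1: ctcttctcctGGCAAAAgctgctatga
YAP1 site 2: tttggaggagGGCAAAAgttggaagta
TEAD1 site 1: ctctctctgcAGAGCCCtgtttctaat
TEAD1 site 2: aagccttcccAGAGCCCcgtcttgctt

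A match says only that these letters are present. The sites of LATS2 matched the complement of siSALIS_02 and those of TEAD1 matched siSALIS_01 as listed, and the oligos differed between the replicate numbers. Which library received which oligo was not given in the sources used here, and the part of the sites in the levels was not tested.

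The rest of the pathway was described from lists of genes with known roles. Between siLINC01186 and siNC no gene of any list passed an adjusted p of 0.05 in edgeR's test without a block. Among 22 YAP and TAZ target genes 2 had an unadjusted p under 0.05, IGFBP3, an insulin-like growth factor binding protein (log2 fold change 1.10), and CRIM1, a transmembrane protein with cysteine-rich repeats (-0.48), in opposite directions, and neither passed the adjustment. IGFBP3 did pass the limits the study states. With the replicate number as a block it was called (log2 fold change 1.2, adjusted p = 1.73e-22 by edgeR), as was CRIM1 (-0.49, adjusted p = 0.00186 by edgeR). With a filter of 1 count in any library and no block, IGFBP3 was called as well (adjusted p = 0.00638 by edgeR). IGFBP3 had 66.6 CPM and 161 CPM with siNC and 281 CPM and 207 CPM with siLINC01186, so siNC replicate 1 was the lowest library. Without siNC replicate 2 its log2 fold change was 1.87, from a fit that kept that lowest library as the only control. In the test without a block, TPM4, a tropomyosin (0.76), and EGLN3, an oxygen-sensing prolyl hydroxylase (0.82), also had an unadjusted p under 0.05 and did not pass the adjustment. The median log2 fold change was -0.13 over the target genes, -0.04 over 13 Hippo kinases and adaptors and -0.14 over 16 upstream regulators. WISP1, a CCN family member named after its values were seen, had 0 counts with siNC in both replicates and 7 and 4 counts with siLINC01186.

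Between the replicate numbers the 22 target genes went both ways, with 6 higher and 5 lower in replicate 1. Without the genes followed here, 2 of 16 were higher and 5 lower, and their median was 0.08 on the log2 scale. NT5E, an ecto-nucleotidase, was 1.79-fold higher (log2 fold change 0.84, SE 0.14, adjusted p = 5.22e-08 by edgeR) and FJX1, a homolog of a fly regulator of Hippo signaling, 1.71-fold higher. CCDC80, a secreted matrix protein, moved the opposite way to CTGF and CYR61 (log2 fold change -0.96, SE 0.16, adjusted p = 5.51e-08 by edgeR).

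Of 6 CCN genes CTGF and CYR61 alone were called. WISP2 (-0.23 on the log2 scale) and NOV (0.11) did not pass. Of 13 Hippo kinases and adaptors LATS2 and TAOK2, a kinase upstream of the cascade (log2 fold change 0.34), were higher and none was lower, while LATS1 (0.30, adjusted p = 0.138 by edgeR) and MOB1B, a LATS cofactor (0.37, adjusted p = 0.0768 by edgeR), did not pass. Of 16 upstream regulators 3 were higher, namely AJUBA, AMOTL2 and the polarity protein SCRIB (0.55), and 4 were lower. Among the lower ones AMOTL1, the angiomotin relative of AMOTL2, had a log2 fold change of -0.40 and the phosphatase PTPN14, which binds YAP, one of -0.35. Of 8 YAP, TAZ, TEAD and VGLL genes tested TEAD1 and TEAD4 (0.56) were higher and none was lower.

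Targets of SRF and its actin-regulated coactivators MRTF, which share several genes with YAP, were also higher in replicate 1 in 7 of 17 cases and lower in 1. ACTB, which encodes β-actin, had 5538 CPM and 3038 CPM in siNC replicates 1 and 2 and 6053 CPM and 3068 CPM in siLINC01186 replicates 1 and 2, a log2 fold change of 0.92. ACTG1, the γ-actin gene, had a log2 fold change of 0.86. Of 22 hypoxia-responsive genes 3 were higher and 6 lower. CA9, a carbonic anhydrase induced by low oxygen, had 16.5 CPM in siNC replicate 1 against 83.8 CPM in siNC replicate 2 and 89.9 CPM and 83.8 CPM with siLINC01186, so that 1 library alone was low. Of 18 proliferation genes 1 was higher, CCNE1, and 2 were lower, MKI67 and TOP2A. Median log2 fold changes of replicate 1 over replicate 2 were 0.20 for the SRF and MRTF list, 0.16 for the Hippo kinases and adaptors, 0.13 for all 22 target genes, 0.05 for the proliferation genes and -0.10 for the hypoxia-responsive genes, beside the -0.0207 of all genes.

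**Figure D5:**
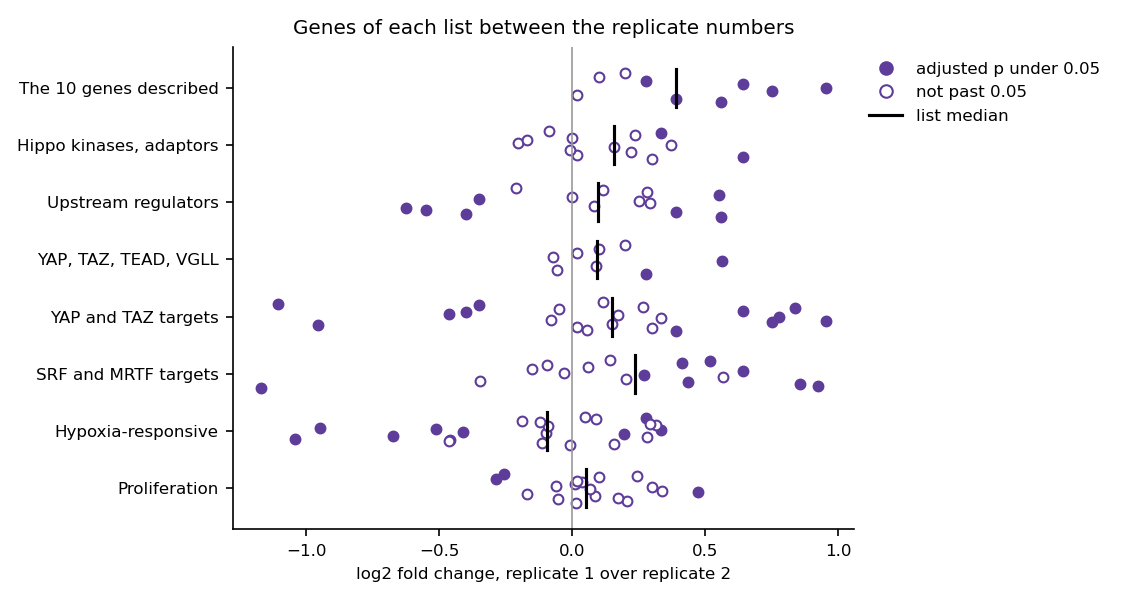
Log2 fold change of replicate 1 over replicate 2 for each gene of 8 lists, for genes whose 4 libraries together held 50 counts or more. Filled points passed an adjusted p of 0.05 in edgeR's test and bars are list medians. Called genes of the YAP and TAZ target list lie on both sides of 0, and those of the kinase list and of the YAP, TAZ, TEAD and VGLL list lie above it.

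Outside the 10 genes, 5 had level profiles nearest to that of CTGF over the 4 libraries, by the Euclidean distance of centred log2 CPM among 8848 genes with a mean log2 CPM over 4. They were PYCRL (distance 0.194), BRSK2 (0.217), GPATCH4 (0.219), SRM (0.236) and HYPK (0.240). SRM, which encodes spermidine synthase, had 320 CPM and 152 CPM with siNC and 269 CPM and 179 CPM with siLINC01186, the same order of libraries as CTGF.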

How the data were processed

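The authors deposited 1 table per library with unnormalized read counts per gene and TPM, and these TPM values equal the counts over the tabulated gene length, rescaled to a common total (largest difference 2.91e-05 TPM). The submitters' processing notes name hg19, HISAT2, HISAT, TopHat2 and Bowtie2 with no role or version, and strand handling in counting was not given in the sources used here. Positions are hg19 as in the files. Promoters (RefSeq, GRCh38.p14) and 3′UTRs (GENCODE release 29, GRCh38) were matched by symbol, with no conversion between builds. A pair of symbols turned into dates occurred in 2 rows each and were kept as separate rows.

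R 4.3.3 was used with limma 3.58.1, DESeq2 1.42.0 and edgeR 4.0.16. Sequence searches and plots used Python 3.11.15. Genes whose 4 libraries together held 5 counts or more were scaled by TMM and tested by the quasi-likelihood test of edgeR, with Benjamini-Hochberg adjusted p-values across the 23942 genes that passed. siLINC01186 against siNC had no block, and replicate 1 against replicate 2 had the treatment as a term, which left 1 residual degree of freedom. Log2 fold changes are those of edgeR's fit at its default settings, and their standard errors come from the F statistic. A prior count of 2 was used only for log2 CPM, in the profiles nearest to CTGF and the correlation of same-numbered libraries. Intervals of ratios are exact conditional 95% intervals. The procedures were tested on simulated counts.

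Alternatives were library totals, the size factors and the Wald test of DESeq2, the expression filter of edgeR, a filter of 1 count in any library, a replicate block or no treatment term, the deposited TPM, and leaving out each library. Besides the 10 genes, at most 3 genes of each other list with the smallest p in each comparison and at least 50 counts, and the 5 nearest to CTGF, were named. The genes and lists were chosen with earlier results of these data known. The result of 1 marker gene is not reported here.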

Additional observations from a re-analysis of the deposited data

Results flagged for a closer look

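CTGF and LATS2 moved in opposite directions with siLINC01186 in the 2 replicate numbers. The log2 ratio of siLINC01186 to siNC for CTGF was lower in replicate 1 than in replicate 2 by a difference of -0.85 (-1.23 to -0.47), from 342 and 238 counts in replicate 1 and 145 and 235 counts in replicate 2. For LATS2 the difference was 0.85 (0.59 to 1.10), from 569 and 636 counts in replicate 1 and 470 and 377 counts in replicate 2. The intervals cover counting error only, with 1 library on each side, and neither difference was tested. With library totals or DESeq2's size factors YAP1 met this description beside CTGF and LATS2. From the deposited TPM the 3 genes that met it were CTGF, CYR61 and YAP1, and LATS2 did not. Each change of scaling moved the ratios of all genes within a replicate number by a common amount, so these genes entered or left by scaling alone.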

How the results depend on the processing

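With the replicate number as a block, siLINC01186 against siNC called 278 genes (83 higher, 195 lower) and 2 of the 10 genes, AMOTL2 (log2 fold change -0.43, adjusted p = 0.0173 by edgeR) and TEAD1 (-0.37, adjusted p = 0.0239 by edgeR), and the fold change of LATS2 turned to -0.020. Of the 22 YAP and TAZ target genes the block called 4, IGFBP3 higher (1.20) and AMOTL2, CRIM1 (-0.49) and NT5E (-0.64) lower. Same-numbered libraries deviated together (correlation 0.563 over 16848 genes), but with 2 pairs and no label saying what a number marks they share only a number. Otherwise this comparison called 1 gene by DESeq2's Wald test, 5 with at least 1 count in any library (GUSBP9, IGFBP3, LOC728688, MAGEA2B and MIR6087, named after their values were seen) and 0 to 6 when a library was left out, and never 1 of the 10.

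Between the replicate numbers, 925 genes were called by DESeq2's Wald test, 2754 with edgeR's expression filter, 2158 without the treatment term and 1294 to 3332 when a library was left out. Of the 10 genes, 2 were called by DESeq2's Wald test and 2 to 5 when a library was left out, the fewest without siNC replicate 1 (2) and without siLINC01186 replicate 1 (3). These fits without a library had no treatment term, since no residual degree of freedom would have remained. With library totals alone the log2 fold changes of AXL and WWTR1 turned to -0.093 and -0.014.

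When a library was left out, log2 fold changes of siLINC01186 against siNC ranged from -0.45 to 0.73 for CTGF, -0.38 to 0.77 for CYR61, -0.57 to 0.49 for LATS2, -0.54 to 0.18 for AJUBA, -0.058 to 0.35 for YAP1 and -0.21 to 0.20 for ANKRD1, all changing sign. Between the replicate numbers those of AXL (-0.25 to 0.29), YAP1 (-0.0020 to 0.38) and TEAD1 (-0.028 to 0.56) changed sign. Depth limits ANKRD1, with 3 to 5 counts in each library.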
